A study of Mus musculus with 16 samples.

Results

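The clustered protocadherins were read as 24 rows of the 38924 gene rows in count tables from mouse thalamus. A row was taken where its Ensembl ID maps, in the GENCODE M21 annotation of GRCm38 (mm10), to a protein-coding gene of the alpha, beta or gamma cluster on chromosome 18 and where at least 4 libraries held at least 10 counts. The 24 rows comprised all 22 beta genes, 1 alpha row and 1 gamma row. In 23 of them all 16 libraries reached 10 counts. Pcdhb1 reached it in 13 libraries and was the row nearest the threshold, and no row of the family fell short of it.

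Clustered protocadherins are cell-surface adhesion proteins of the cadherin superfamily that bind copies of themselves on neighbouring membranes. Each neuron switches on its own small set of them by choosing among alternative promoters, a choice that involves CTCF, cohesin and DNA methylation, and the resulting surface code lets a neuron tell its own branches from those of others. In the alpha and gamma clusters each variable exon carries its own promoter and is spliced to constant exons that all isoforms of the cluster share and that encode a common cytoplasmic tail. Beta genes are single-exon units with no constant region. The C-type isoforms at the ends of the alpha and gamma clusters are switched on more uniformly, and the alpha C-type gene Pcdhac2 is known for its role in spacing serotonin axons. Of the C-type genes only the ID that M21 calls Pcdhgc4 is among the rows read here, and the others are not analysed here.

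The samples were bilateral punches labelled as ventral posterolateral thalamic nuclei, the relay of touch and pain signals from the body. Each of the 16 libraries pooled 2 mice, with 4 libraries in each of 4 groups: wild type (WT) naive, WT after CFA, RGS4 KO naive and RGS4 KO after CFA. The label CFA is not spelled out, and no time after it, age or strain is given. The series text describes a floxed Rgs4 gene and Cre recombinase delivered by an adeno-associated virus, so that only infected cells would lose the gene, while the sample labels say only RGS4 KO, and what the WT mice received is not given in the sources used here. The labels call the mice female and the extraction text calls them male. Libraries are named below by group and by the number in their label, which runs from 1 to 16 through the series.

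Total counts ran from 18.1 M to 78.8 M per library, with a median of 42.6 M. Levels are in CPM, the usual edgeR unit, in which counts are scaled to a common library size, here with TMM factors. Rgs4 itself was at 80.9 ± 3.66 CPM (SD, n = 4) in WT naive and 81.3 ± 2.74 in KO naive libraries, and at 89.3 ± 6.66 in WT CFA and 84.1 ± 5.5 in KO CFA libraries, so the targeted gene was not lower in the naive libraries labelled KO and the genotype is given throughout as labelled. The 12 relay neuron markers summed to between 1190 and 1440 CPM. Of these, 2 were called higher in KO than in WT naive libraries, where 1.45% of all genes tested were called. After CFA, 1 was called lower in KO than in WT (1.6% of all genes). With CFA, 2 were called higher in WT (2.23%) and 2 in the average over genotype (1.81%). In the interaction of genotype and CFA 1 was called lower (0.0654%). Markers of 3 midbrain cell types were also present: the 8 serotonin neuron markers summed to between 197 and 1450 CPM and the 8 dopamine neuron markers to between 266 and 784 CPM, with no marker of either list at 0 in any library. The 8 oculomotor and Edinger-Westphal markers summed to 32.8 to 62.5 CPM in WT naive, 38 to 286 in KO naive, 280 to 419 in WT CFA and 73.8 to 210 in KO CFA libraries, with Phox2a at 0 in 5 libraries, so WT CFA libraries stood above WT naive and KO CFA libraries without overlap. Of the 7 of these tested, 3 were called higher with CFA in WT. In these bulk samples a change in the number of cells of a type and a change in RNA per cell cannot be told apart.

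The alpha and gamma rows need a reading of their own. M21 lists 14 alpha, 22 beta and 21 gamma protein-coding genes. The other 13 alpha and 20 gamma genes carry ID numbers of 102206 or more, above the highest number in the tables, 99334, and are not analysed here. The alpha row carries an older version of an ID that M21 calls Pcdha11, a symbol it also gives to another alpha gene, and the gamma row an older version of the ID of Pcdhgc4. Whether these 2 rows count single isoforms or whole clusters is not given in the sources used here, so they are called the alpha row and the gamma row. Exons shared by 2 or more genes of a cluster took 2864 of 40755 exon bases in the alpha cluster (7%) and 3265 of 68392 in the gamma cluster (4.8%), against 455 of 92227 (0.5%) in the beta cluster. These shares count each base of a cluster once, and sharing weighs more in a single gene. In M21 the gene of the alpha row has 5359 exon bases, of which 2499 lie in no other gene. For the gene of the gamma row it is 3477 of 5596. The shared bases of the beta cluster lie where Pcdhb21 and Pcdhb22 overlap, and their counts are uncertain to that extent. All 3 clusters lie on the plus strand of chromosome 18, the alpha genes at 36930184 to 37187661, the beta genes at 37264938 to 37524479 and the gamma genes at 37661793 to 37841873.

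The gamma row was the most abundant of the family and the steadiest. It lay between 383 and 423 CPM in the 16 libraries, a 1.1-fold range. The alpha row lay between 149 and 209 CPM, a 1.4-fold range, and the 22 beta genes together between 140 and 194 CPM, a 1.39-fold range. Per kilobase of exon (M21 gene length) the mean level was 73.9 CPM per kb for the gamma row and 32.2 CPM per kb for the alpha row. The median beta gene stood at 1.75 CPM per kb, and the 22 beta genes summed to 39.5 CPM per kb, near the level of the alpha row. If the alpha and gamma rows hold more exons than M21 gives these genes, their levels per kb would be lower: spread over all exons of their cluster they would be 4.22 and 6.05 CPM per kb.

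Among the beta genes Pcdhb9 had the highest level per length, at 3.11 CPM per kb, followed by Pcdhb17 at 2.97 and Pcdhb20 at 2.72. Their library ranges overlapped, at 2.52 to 3.58, 2.55 to 3.61 and 2.24 to 3.15 CPM per kb, so the order of these 3 is not resolved by the spread over libraries. Pcdhb1, the first gene of the cluster, was the lowest at 0.224 CPM per kb, and its range of 0.0884 to 0.414 CPM per kb lay below that of every other beta gene. The next lowest gene, Pcdhb14, stood at 0.984 CPM per kb. The highest gene was 13.9 times the lowest.

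**Figure D1:**
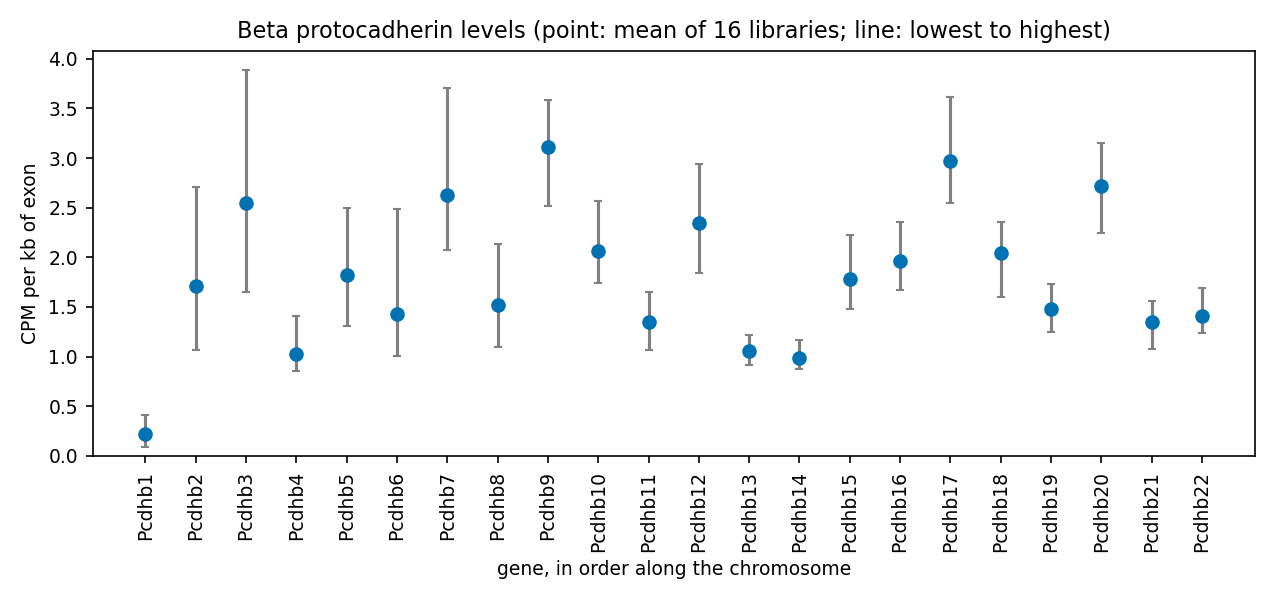
Level of each beta protocadherin in CPM per kb of exon (vertical axis), in the order of the genes along the chromosome (horizontal axis), with the mean of 16 libraries as a point and the lowest to highest library as a line. Pcdhb1 lies below all others at 0.224, Pcdhb9, Pcdhb17 and Pcdhb20 are the highest means, and the lines of Pcdhb2, Pcdhb3 and Pcdhb6 are long for their level.

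Beta genes differed in how much they varied between libraries of the same group. The biological coefficient of variation, which edgeR estimates after removing counting noise, was 21.4% for Pcdhb2, 18.9% for Pcdhb3 and 21.8% for Pcdhb6, genes picked after their values were seen. The 501 genes nearest in level had medians of 8.05%, 6.78% and 7.94%, and between 96.2% and 97.2% of them varied less than the gene named. Pcdhb9, at 6.15%, varied less than the median of its neighbours in level, 6.86%. In all, 19 of 22 beta genes lay above the median of genes of like level, and 4 above 90% of them. The gamma row had a coefficient of 3.51%, and 21.4% of its neighbours in level varied less. The alpha row had one of 6.65% against a neighbour median of 3.81%.

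The excess spread had a pattern across libraries. WT naive library 2 and WT CFA library 9 were the lowest pair among the 8 WT libraries for all 7 genes from Pcdhb2 to Pcdhb8, and WT CFA library 10 was the highest for the same 7. Pcdhb3, for example, was at 7.75 CPM in library 2 and 8.17 CPM in library 9, against 14.7 CPM in library 10. Across the whole beta cluster, library 10 was the highest WT library for 14 of 22 genes.

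**Figure D2:**
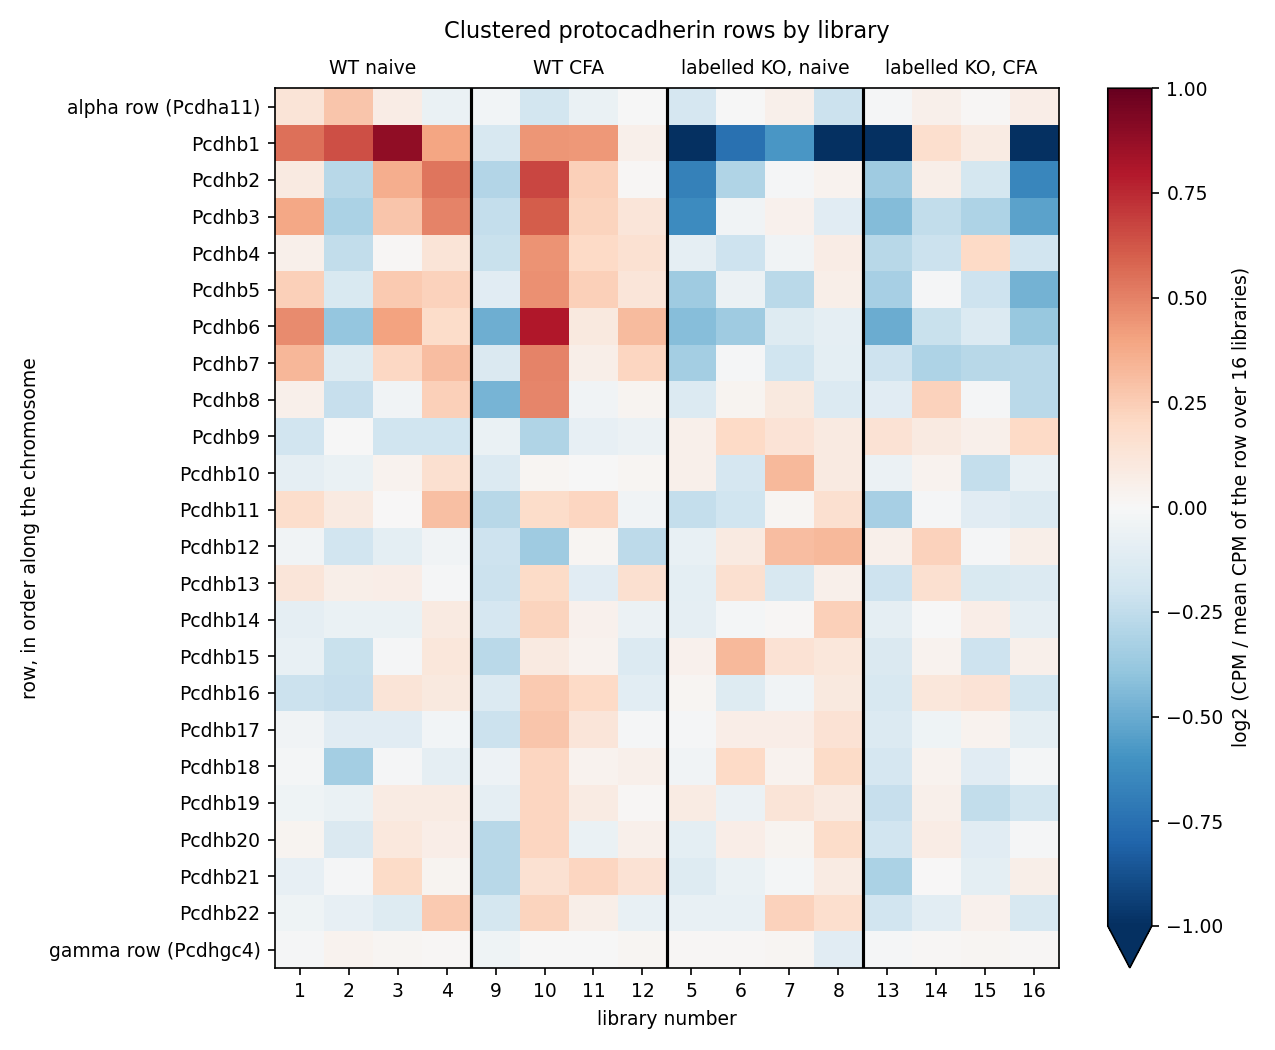
Each of the 24 rows (vertical axis, in chromosome order) in each of the 16 libraries (horizontal axis, by group), coloured by the log2 ratio of its CPM to the mean CPM of that row over the 16 libraries. Colours stop at -1 and 1, which Pcdhb1 passes on the low side in 4 libraries; the first 7 beta genes are mostly red in WT and blue in KO libraries, Pcdhb9 is blue in most WT and red in all KO libraries, and the gamma row is nearly white throughout.

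The first comparison asked which of these genes differed between KO and WT mice without CFA. Pcdhb1 was the 1 row of 24 called, and it was lower in KO libraries. Its level was 0.848, 0.906, 1.07 and 0.761 CPM in the 4 WT naive libraries and 0.23, 0.346, 0.386 and 0.279 CPM in the 4 KO naive libraries. The groups did not overlap, and all 4 KO libraries lay below 0.4 CPM. These levels rest on few reads, between 7 and 59 counts per library over the series. The fitted log2 fold change was -1.62 (SE 0.32; edgeR quasi-likelihood test, Benjamini-Hochberg adjusted p = 0.0118), a fold of 0.326. Over all 18350 genes tested, 1.45% were called in this comparison, and 0.752% were called lower. Without KO naive library 5 the edgeR adjusted p of Pcdhb1 was 0.0629, with all libraries thinned to the depth of the shallowest it was 0.0959, and over all alternatives tried it ranged from 0.00171 to 0.278.

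The other 23 rows did not pass the threshold in the naive libraries. At an unadjusted p under 0.05 there were 7 of 24 rows (29.2%), against 13.8% of all genes tested. The lowest of these after Pcdhb1 was Pcdhb9, with a log2 fold change of 0.26 (SE 0.07; edgeR adjusted p = 0.0709), and then Pcdhb7, at -0.35 (SE 0.12; edgeR adjusted p = 0.184). The median log2 fold change of the 24 rows was -0.04, and that of all genes 0. Several beta genes rose and fell together between libraries, so counts of rows, here and below, are not counts of separate observations. KO and WT naive libraries did not overlap for 3 rows, Pcdhb1 on the lower side and Pcdhb9 and Pcdhb17 on the higher, where 7.23% of all genes tested had no overlap. The summed markers of all 13 cell types overlapped between these groups. Of single markers, 2 of 12 for relay neurons were called higher in KO libraries and 1 of 8 for astrocytes lower. Their part in the protocadherin values was not tested.

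After CFA, no row was called between KO and WT libraries by edgeR, where 1.6% of all genes tested were. Without adjustment 9 of 24 rows (37.5%) had p under 0.05, against 12.3% of all genes, and DESeq2 called 3, Pcdhb5, Pcdhb7 and Pcdhb9. Pcdhb9 had the lowest edgeR p, with a log2 fold change of 0.25 (SE 0.07; adjusted p = 0.067). Pcdhb7 followed at -0.44 (SE 0.12; edgeR adjusted p = 0.072), and Pcdhb5 at -0.45 (SE 0.13; edgeR adjusted p = 0.095). Leaving out WT naive library 2 brought Pcdhb7 under the threshold (edgeR adjusted p = 0.033), and leaving out WT CFA library 9 brought Pcdhb7 (0.0155) and Pcdhb5 (0.034) under it. Over all alternatives the adjusted p ran from 0.0155 to 0.508 for Pcdhb7, from 0.034 to 0.397 for Pcdhb5 and from 0.031 to 0.914 for Pcdhb9, whose log2 fold change fell to 0.06 under one way of thinning. KO and WT CFA libraries did not overlap for 3 rows, Pcdhb3 and Pcdhb7 on the lower side and Pcdhb9 on the higher, where 8.03% of all genes tested had no overlap. Pcdhb1 was split within the KO CFA group: libraries 13 and 16 were at 0.229 and 0.258 CPM, as low as the KO naive libraries, and libraries 14 and 15 at 0.652 and 0.612 CPM, within the range of the WT CFA libraries. The summed markers of 2 of 13 cell types also did not overlap between these groups. The oculomotor and Edinger-Westphal markers were at 280 to 419 CPM in WT CFA and 73.8 to 210 CPM in KO CFA libraries, with 0 of 7 called. The 8 astrocyte markers were at 3280 to 3380 CPM in WT CFA and 2910 to 3140 CPM in KO CFA libraries, with 1 of 8 called lower and none at 0 in any library. The part of either in the protocadherin values was not tested.

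Averaged over naive and CFA libraries, 5 beta genes were called between KO and WT, 3 lower and 2 higher, where 3.73% of all genes tested were called, 1.99% lower and 1.74% higher. The 3 lower genes, Pcdhb1, Pcdhb5 and Pcdhb7, lie in the first 7 positions of the cluster, and the 2 higher ones, Pcdhb9 and Pcdhb12, lie beyond them. This average draws on the same libraries as the comparisons above and is not independent of them. In it 1 of 8 astrocyte markers was also called lower, and its part was not tested.

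Pcdhb9 was the 1 row whose 8 WT and 8 KO libraries did not overlap, a separation that 0.926% of all genes tested had, 0.398% with the KO libraries higher. The WT naive libraries were at 8.31, 9.44, 8.28 and 8.26 CPM and the WT CFA libraries at 9.04, 7.7, 8.98 and 9.12 CPM. The KO naive libraries were at 9.83, 10.9, 10.4 and 10.1 CPM and the KO CFA libraries at 10.5, 10.1, 9.83 and 10.9 CPM. Every KO library was thus above the highest WT library, by a narrow margin of 9.83 over 9.44 CPM. The difference was small and even in size in both treatments, at a log2 fold change of 0.26 (SE 0.05; edgeR adjusted p = 0.00334), a fold of 1.2.

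Pcdhb7 moved the other way. It was at 11.6, 8.43, 10.6 and 11.4 CPM in WT naive libraries and at 8.33, 13, 9.59 and 10.7 CPM in WT CFA libraries. It was at 7.26, 9.12, 8 and 8.6 CPM in KO naive libraries and at 7.97, 7.43, 7.58 and 7.64 CPM in KO CFA libraries. WT libraries 2 and 9 were the low ones of their groups and overlapped the KO naive range, while the other 6 WT libraries lay above every KO library. Its log2 fold change was -0.40 (SE 0.08; edgeR adjusted p = 0.0105), a fold of 0.76.

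Pcdhb5 showed the same arrangement at a lower level. Its means were 7.17 ± 0.916 CPM (SD, n = 4) in WT naive, 7.36 ± 1.21 in WT CFA, 5.83 ± 0.764 in KO naive and 5.43 ± 0.742 in KO CFA libraries, and the groups overlapped through WT libraries 2 and 9, at 5.8 and 5.95 CPM. The log2 fold change was -0.37 (SE 0.09; edgeR adjusted p = 0.026). Pcdhb1 averaged 0.784 ± 0.172 CPM (SD, n = 8) in WT and 0.374 ± 0.169 in KO libraries, with a log2 fold change of -1.19 (SE 0.21; edgeR adjusted p = 0.00215), and the groups overlapped through KO CFA libraries 14 and 15.

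Pcdhb12 was higher in KO libraries. Its means were 6.7 ± 0.332 CPM (SD, n = 4) in WT naive, 6.23 ± 0.712 in WT CFA, 8.02 ± 1.03 in KO naive and 7.57 ± 0.552 in KO CFA libraries. WT naive libraries 1 and 4, at 6.95 and 6.96 CPM, and WT CFA library 11, at 7.23 CPM, lay within the KO range. KO naive library 5, at 6.78 CPM, and KO CFA library 15, at 7.09 CPM, lay within the WT range. The log2 fold change was 0.27 (SE 0.07; edgeR adjusted p = 0.0285). Of its 3034 exon bases 1107 are free of an antisense gene in M21 that is not analysed here, and the library kit, as the labels name it, does not mark strand, so reads of the 2 genes cannot be told apart. Another 12% of its 50-base stretches also occur in other genes, the highest share of the beta cluster. The share was 8.7% for Pcdhb9, 8.6% for Pcdhb7, 5.2% for Pcdhb5 and 0% for Pcdhb1.

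**Figure D3:**
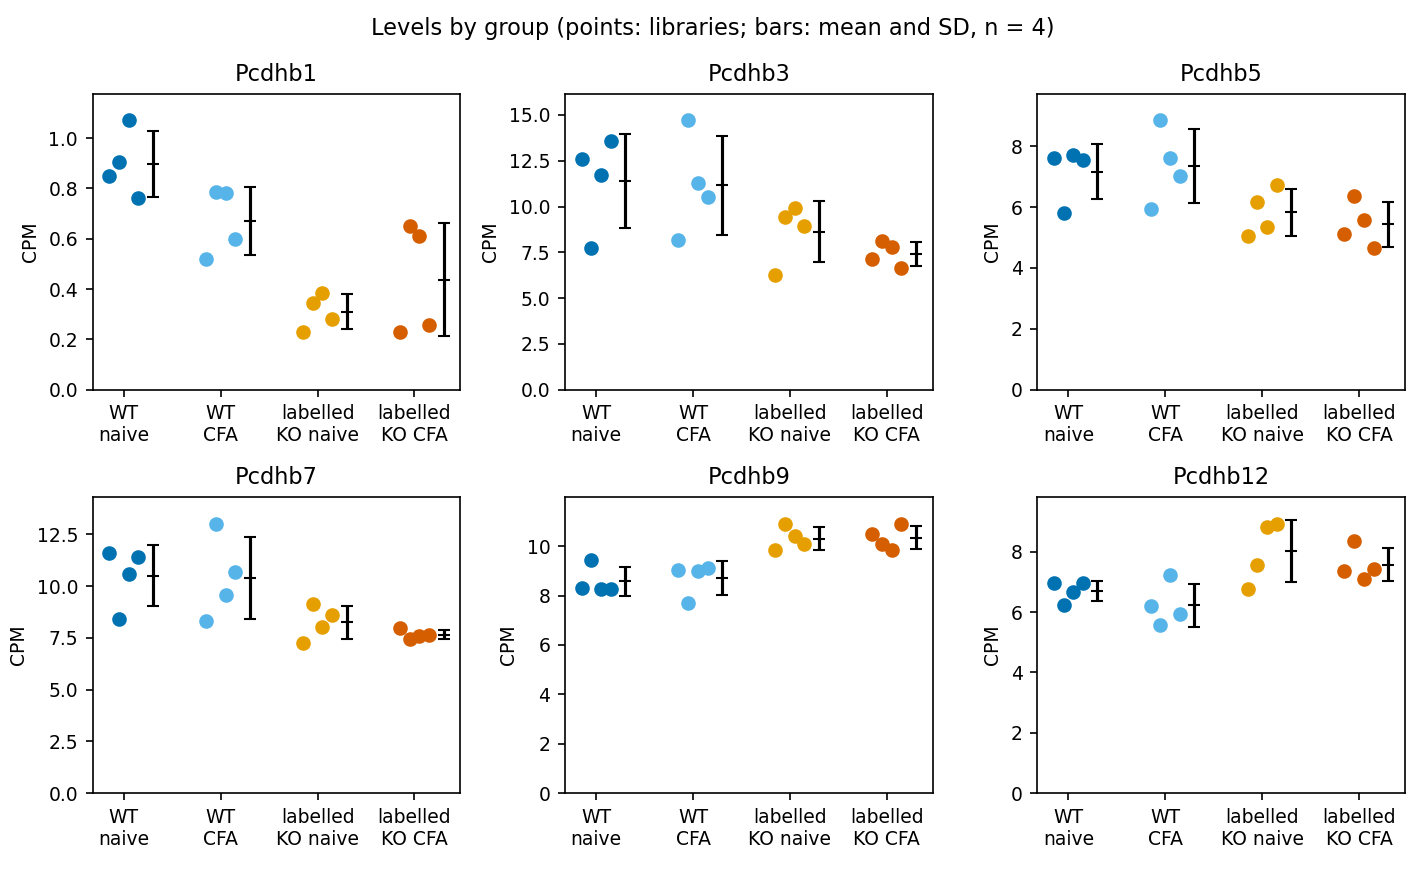
CPM (vertical axes, from 0) of 6 beta genes in each library, by group (horizontal axes), with points for libraries and a bar for the mean and SD of 4 libraries. Pcdhb1, Pcdhb3, Pcdhb5 and Pcdhb7 are lower in the libraries labelled KO with overlap through several libraries, Pcdhb9 is higher with no overlap (9.83 to 10.9 against 7.7 to 9.44 CPM), and Pcdhb12 is higher with overlap.

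The 5 calls were not equally firm. Pcdhb7 was called in all 23 alternatives tried, and Pcdhb1 and Pcdhb9 in 22 of 23. Pcdhb5 and Pcdhb12 were called in 14 of 23. Leaving out any one of libraries 1, 3, 4, 5, 7, 13 or 16 ended the call of Pcdhb5, with edgeR adjusted p between 0.052 and 0.0729. Leaving out any one of libraries 2, 3, 7, 8, 10, 12 or 14 ended that of Pcdhb12, with edgeR adjusted p between 0.0558 and 0.0674.

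The size of the difference varied along the cluster. All 7 genes from Pcdhb1 to Pcdhb7 had a lower fitted level in KO libraries in the naive comparison, in the CFA comparison and in the average. Their log2 fold changes ran from -1.62 to -0.05 in naive and from -0.76 to -0.3 in CFA libraries, with medians of -0.43 and -0.47. The 15 genes from Pcdhb8 to Pcdhb22 had medians of 0.06 and -0.1, with 4 lower and 11 higher in naive and 13 lower and 2 higher in CFA libraries. After CFA, then, 20 of 22 beta genes had a lower fitted level in KO libraries, so most of the later genes shared the sign of the first 7 there, with a smaller median. In the average, 8 of the 15 were lower and 7 higher. This division was drawn after the values were seen and carries no test, and 3 of the 7 single genes were called in the average.

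The summed counts restate this division per library. Pcdhb1 to Pcdhb7 made up 23.5% to 29.7% of all beta counts in WT naive libraries and 24.3% to 30.7% in WT CFA libraries. In KO libraries they made up 20.1% to 22.9% without CFA and 20.5% to 23.1% with it. The mean share was 27.5% ± 2.54 (SD, n = 8) in WT and 22% ± 1.1 in KO libraries, and the 8 WT and 8 KO libraries did not overlap. Because the division was drawn after these values were seen, this separation was partly set by that choice. It carries no test and has no share of all genes to set beside it. In level, the first 7 genes summed to 45.7 ± 8.5 CPM (SD, n = 8) in WT and 34.1 ± 3.52 in KO libraries, while the other 15 summed to 120 ± 8.89 and 121 ± 7.52 CPM. WT libraries 2 and 9 had the lowest sums of the WT libraries over the first 7 genes, 34.2 and 34 CPM, within the KO range of 29.4 to 38.5 CPM, although their shares of 23.5% and 24.3% stayed above every KO library. The equality of the 2 spreads was not tested.

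**Figure D4:**
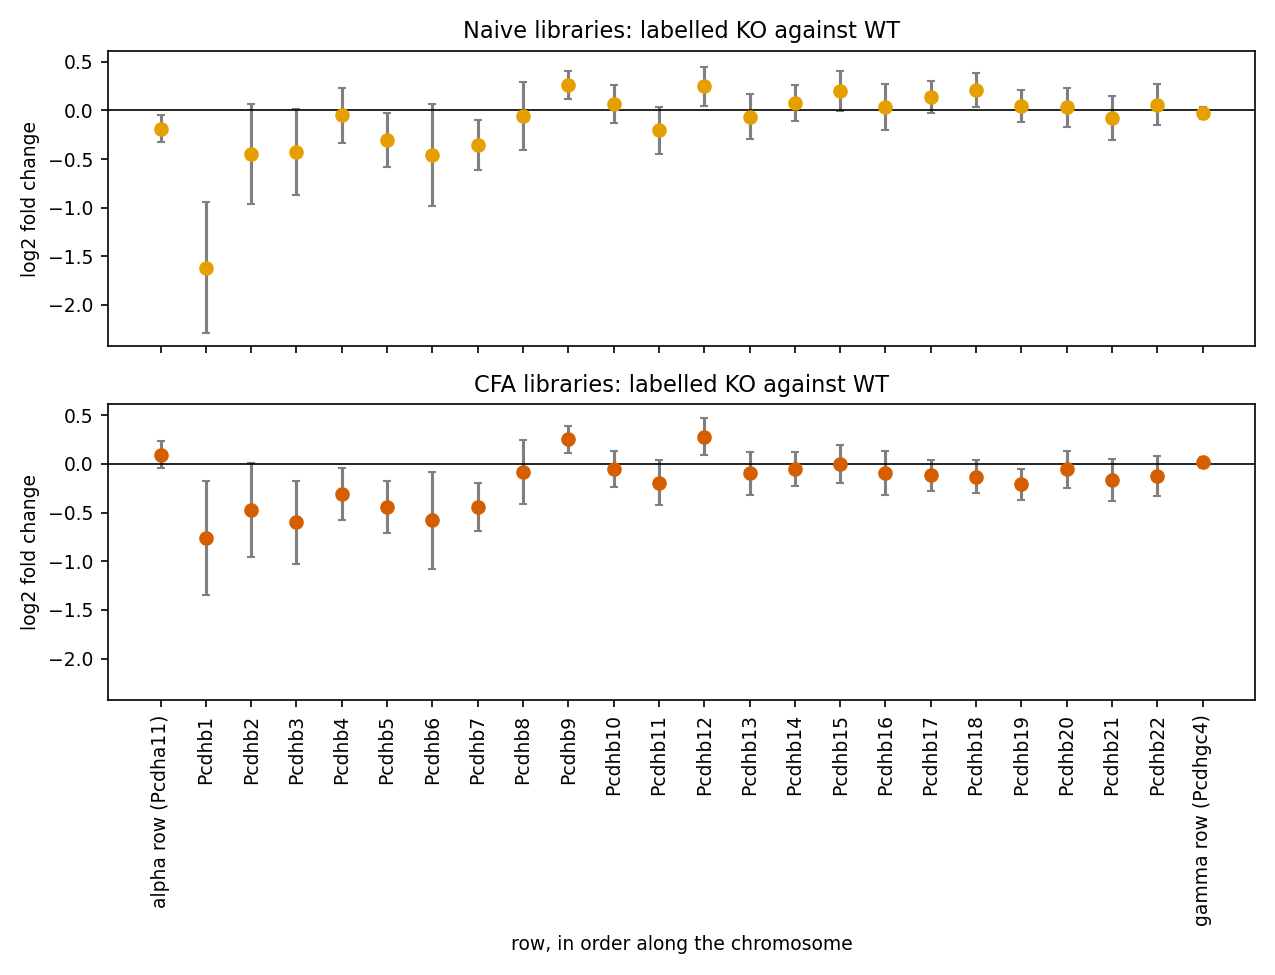
Log2 fold change of the libraries labelled KO against WT (vertical axes) for each row in chromosome order (horizontal axis), with the edgeR estimate as a point and its 95% interval as a line, in naive libraries above and CFA libraries below. The first 7 beta genes lie below 0 in both panels, Pcdhb9 and Pcdhb12 above 0 in both, and the gamma row close to 0 with a short interval.

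CFA itself was followed by no called change in these genes. No row was called between CFA and naive libraries in WT, where 2.23% of all genes tested were called, nor in KO, where 0.185% were. No row was called for CFA averaged over genotype, where 1.81% of all genes were, or for the interaction of genotype and CFA, where 0.0654% were. At an unadjusted p under 0.05 in edgeR there were 2 of 24 rows in WT (8.33%, against 17.6% of all genes tested), 2 in KO (8.33% against 7.81%), 0 in the average (against 14.6%) and 4 in the interaction (16.7% against 9.86%). DESeq2 called none in any of the 4. In WT the summed markers of 2 of 13 cell types did not overlap between CFA and naive libraries, those of oculomotor and Edinger-Westphal neurons given above and the 6 of oligodendrocyte precursors, at 334 to 375 CPM in naive and 377 to 420 CPM in CFA libraries, and their part was not tested. In WT the lowest p belonged to the alpha row, with a log2 fold change of -0.18 (SE 0.07; edgeR adjusted p = 0.178). In KO it belonged to Pcdhb19, at -0.21 (SE 0.08; edgeR adjusted p = 0.489). In the interaction it belonged to Pcdhb18, at -0.34 (SE 0.12; edgeR adjusted p = 0.328), a gene at 9.51 ± 0.978 CPM (SD, n = 4) in WT naive, 10.7 ± 0.853 in WT CFA, 11 ± 0.902 in KO naive and 9.81 ± 0.615 in KO CFA libraries. The 24 rows had a median log2 change with CFA of 0 in WT and -0.07 in KO libraries, and over all genes tested both medians were 0. For Pcdhb9 the interval of the change with CFA averaged over genotype was -0.09 to 0.12 on the log2 scale, and for the gamma row -0.04 to 0.04.

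The summed levels of the gamma and beta clusters differed between groups by less than or about the spread within them. The alpha row differed by more than the SD of either group in some comparisons, though no difference was called. It was at 186 ± 18.2 CPM (SD, n = 4) in WT naive, 164 ± 14.3 in KO naive, 165 ± 8.82 in WT CFA and 176 ± 4.52 in KO CFA libraries. The gamma row was at 418 ± 4.99 CPM (SD, n = 4) in WT naive, 409 ± 17.5 in KO naive, 412 ± 7.56 in WT CFA and 416 ± 4.24 in KO CFA libraries. KO naive library 8, at 383 CPM, was the low one, and the other 15 libraries lay between 402 and 423 CPM. The beta genes together were at 164 ± 13.2 CPM (SD, n = 4) in WT naive, 161 ± 10.4 in KO naive, 167 ± 22.2 in WT CFA and 149 ± 8.42 in KO CFA libraries, with all groups overlapping.

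The alpha row differed more between libraries than the gamma row, in step with markers of another cell type. It was at 189, 209, 182 and 165 CPM in WT naive libraries and at 154, 172, 179 and 149 CPM in KO naive libraries. It was at 169, 152, 165 and 172 CPM in WT CFA libraries and at 171, 179, 174 and 181 CPM in KO CFA libraries. WT naive libraries were thus the highest as a group, at 186 ± 18.2 CPM (SD, n = 4), with all 4 groups overlapping. Its log2 fold change was -0.19 (SE 0.07; edgeR adjusted p = 0.205) for KO against WT in naive and 0.1 (SE 0.07; edgeR adjusted p = 0.624) in CFA libraries.

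The 8 serotonin neuron markers summed to 668 to 1450 CPM in WT naive, 279 to 978 in KO naive, 197 to 804 in WT CFA and 687 to 983 in KO CFA libraries, with 0 of 8 called between groups in each comparison. The libraries with the lowest marker sums, WT CFA library 10 at 197 CPM and KO naive library 8 at 279 CPM, had 2 of the lowest alpha row levels, 152 and 149 CPM, and WT naive library 2 was the highest in both, at 1450 and 209 CPM. Within groups, the alpha row rose by 0.13 (SE 0.02) on the log2 scale for each doubling of the marker sum (edgeR quasi-likelihood test of the slope, adjusted p = 0.00271), in a fit chosen after the data were seen. Of all genes tested, 1.67% had a slope that was called. Without the 2 libraries farthest from the median, 8 and 10, the slope was 0.18 (SE 0.03; edgeR adjusted p = 0.0182; 0.525% of genes called). The 8 dopamine neuron markers, which summed to 441 to 784 CPM in WT naive, 320 to 600 in KO naive, 266 to 592 in WT CFA and 444 to 601 in KO CFA libraries with 0 of 8 called, gave a slope of 0.23 (SE 0.04; edgeR adjusted p = 0.00105; 1.49% of genes called), and without libraries 2 and 10 one of 0.25 (SE 0.04; edgeR adjusted p = 0.0127; 0.512% called). The 2 marker sums rise and fall together. Library 2 had the highest of both, at 1450 and 784 CPM, and library 10 the lowest, at 197 and 266 CPM. The 2 fits are thus not separate support, and which list the alpha row goes with was not tested.

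The gamma row had a slope of 0.02 (SE 0.02; edgeR adjusted p = 0.752) on the serotonin marker sum. No beta gene had a slope that was called on either list, the lowest edgeR adjusted p being 0.0948 on the serotonin and 0.068 on the dopamine sum, both for Pcdhb16. Without adjustment, 13 of 22 beta genes had p under 0.05 on the serotonin sum, against 12.7% of all genes, and 12 of the 13 slopes were negative. Pcdhb2 and Pcdhb6 had the steepest, at -0.32 each (SE 0.11), opposite in sign to the alpha row. Genes from Pcdhb2 to Pcdhb8 moved together by library, so the 13 are not separate observations. WT library 10, the highest WT library for Pcdhb2 to Pcdhb8, had the lowest marker sum, while libraries 2 and 9, the lowest WT pair for them, had the highest sum of all libraries (1450 CPM) and the highest of the WT CFA group (804 CPM). Without libraries 8 and 10 the count was 1 of 22, against 8.78% of all genes, with 20 of 22 slopes negative. On the dopamine sum the count was also 13 of 22, against 11.8% of all genes, and 1 of 22 without libraries 2 and 10, against 9.24%. Both counts fell without these libraries, but leaving them out also narrows the range of the marker sums and widens the errors. Without libraries 8 and 10 the serotonin slopes of Pcdhb2 and Pcdhb6 were -0.24 (SE 0.21) and -0.16 (SE 0.21). The fall in the counts therefore cannot tell a slope carried by these libraries from a loss of precision. The slopes were tested gene by gene, but how much of the spread of the beta genes goes with these markers was not tested. With the serotonin marker sum in the fit, the log2 fold change of the alpha row between KO and WT was -0.05 in naive and 0.01 in CFA libraries, against -0.19 and 0.1 without it. In the average, Pcdhb1, Pcdhb5, Pcdhb7, Pcdhb9 and Pcdhb12 were called with it, at log2 fold changes of -1.22, -0.41, -0.42, 0.28 and 0.27. Pcdhb2, Pcdhb3 and Pcdhb6 were called lower in addition, which made 8. The same 8 were called with the dopamine marker sum, which rises and falls with the serotonin sum and is not separate support. By treatment, Pcdhb5, Pcdhb7 and Pcdhb9 were at -0.53, -0.53 and 0.38 in naive libraries with the serotonin sum, against -0.3, -0.35 and 0.26 without it. In CFA libraries they were at -0.3, -0.31 and 0.18, against -0.45, -0.44 and 0.25. Pcdhb1 and Pcdhb12 moved the same way. These fits were chosen after the data were seen, and the part of the marked cells in these differences was not tested.

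**Figure D5:**
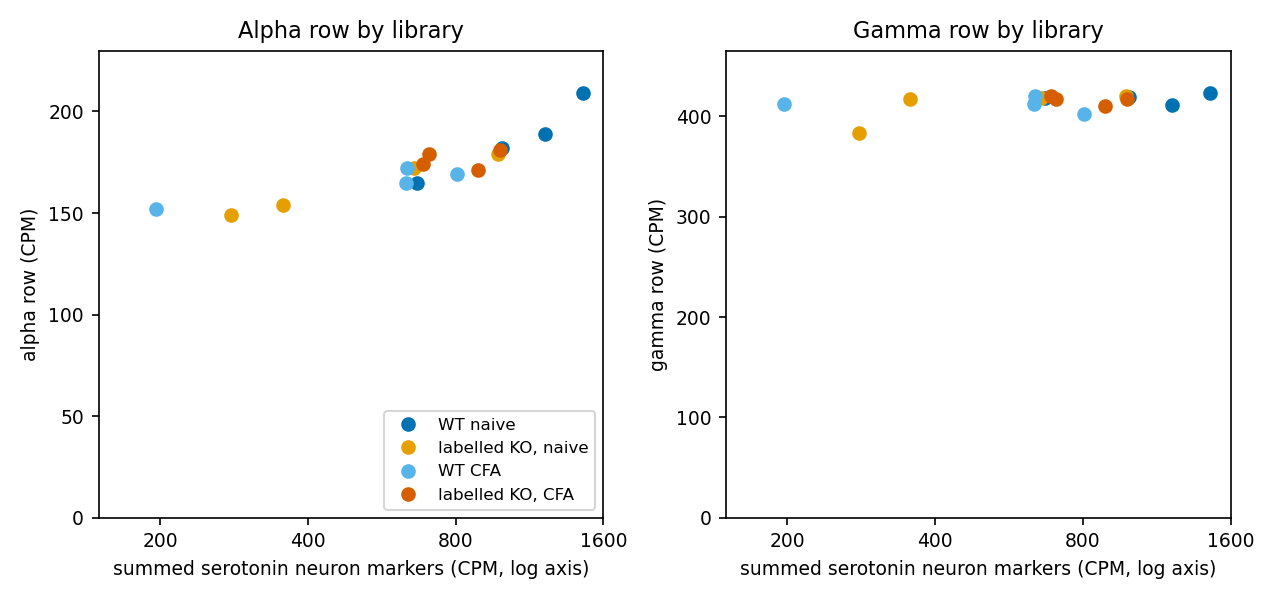
Level of the alpha row (left) and the gamma row (right) in CPM (vertical axes, from 0) against the summed level of the 8 serotonin neuron markers in CPM (horizontal axes, log scale), with 1 point per library coloured by group. The alpha row runs from 149 to 209 CPM and is higher where the marker sum is higher, and the gamma row stays between 383 and 423 CPM across the same range.

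Lists of genes that act with the clustered protocadherins were read in the same fit. Of 25 regulators of protocadherin promoter choice, among them Ctcf and the cohesin subunit gene Rad21, none was called between KO and WT in naive or CFA libraries or in the average. One was called with CFA in WT, the histone H3 lysine methyltransferase Setdb1, which fell by 0.13 on the log2 scale (SE 0.03; edgeR adjusted p = 0.0467), from 60.9 ± 1.57 to 55.8 ± 0.888 CPM (SD, n = 4). Of 23 cytoplasmic partners and signalling genes none was called in any of the 7 comparisons. Of 18 tested genes that flank the clusters on the chromosome none was called in any of the 7 comparisons. At the 0.0654% to 3.73% of all genes called in these comparisons, lists of this length would hold 0 or 1 call, so these counts lie near the background and are no result about the lists.

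Among 12 non-clustered protocadherins, which are single genes elsewhere in the genome, Pcdh9 was called. It was at 130 ± 1.57 CPM (SD, n = 4) in WT naive, 148 ± 11.5 in KO naive, 164 ± 8.84 in WT CFA and 138 ± 9.68 in KO CFA libraries. It rose with CFA in WT by 0.34 on the log2 scale (SE 0.05; edgeR adjusted p = 0.0031), was lower in KO than in WT after CFA (log2 fold change -0.25, SE 0.05; edgeR adjusted p = 0.0163), and its interaction of genotype and CFA was called at -0.43 (SE 0.08; edgeR adjusted p = 0.0377). The oculomotor and Edinger-Westphal marker sums had the same order of group means, at 49.6, 144, 350 and 131 CPM in these groups, and their part in the values of Pcdh9 was not tested. The other 11 were called in none of the 7 comparisons. Of all genes tested, 2.23% were called with CFA in WT, 1.6% between KO and WT after CFA and 0.0654% in the interaction. A call of 1 gene among 12 is no result about the list. Among 12 tested synaptic adhesion genes, the homophilic adhesion gene Dscaml1 rose (log2 fold change 0.24, SE 0.03; edgeR adjusted p = 0.000257) and the neuroligin gene Nlgn3 fell (-0.18, SE 0.03; edgeR adjusted p = 0.00117) with CFA averaged over genotype. Both were also called with CFA in WT (edgeR adjusted p = 0.0177 and 0.017), and Dscaml1 in KO libraries as well (edgeR adjusted p = 0.012). Of all genes tested, 1.81% were called with CFA averaged over genotype, 2.23% in WT and 0.185% in KO libraries. So few calls are no result about the list. Of 24 other cadherin genes, 4 were called in some comparison. The most in a single comparison were 1 higher and 1 lower with CFA in WT, where 2.23% of all genes tested were called. Cdh9 was lower in KO libraries in the average of genotype (log2 fold change -0.25, SE 0.06; edgeR adjusted p = 0.014), and Fat3 was lower in KO naive libraries (-0.20, SE 0.04; edgeR adjusted p = 0.0141). Celsr3 fell with CFA in WT (-0.17, SE 0.04; edgeR adjusted p = 0.035). Cdh6 rose with CFA in WT (0.34, SE 0.06; edgeR adjusted p = 0.00358) and in the average over genotype (0.20, SE 0.04; edgeR adjusted p = 0.0132), and was lower in KO than in WT after CFA (-0.25, SE 0.06; edgeR adjusted p = 0.0236). Its group means of 9.82, 10 and 10.5 CPM in WT naive, KO naive and KO CFA libraries lay below 12.4 CPM in WT CFA libraries, the group with the highest oculomotor and Edinger-Westphal marker sums, whose part was not tested.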

How the data were processed

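RNA from pooled mouse thalamus punches was sequenced from TruSeq version 2 libraries, per the labels' protocols. The deposited values are counts per gene in HTSeq form, made by the authors. TopHat, DESeq2 and mm10 are named in the submitters' processing notes, without versions. No source used here names the annotation release or the strand setting of the counting. Reads given no gene (38% to 39.9% of each file) were left out of library sizes. GENCODE M21 gave symbols to 37607 of 38924 IDs.

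From the counts, edgeR 4.0.16 (R 4.3.3; TMM, filterByExpr at a minimum count of 10, robust quasi-likelihood F test) was fitted to all 16 libraries with 1 mean per group, testing 18350 genes that hold 99.961% of counts. P-values were two-sided, adjusted by Benjamini-Hochberg over all genes tested, and called under 0.05. Intervals are 95%. The fit was tested on simulated data. Libraries of a group differed beyond counting noise (chi-square per degree of freedom 3.36 to 12.8). Replicates are separate pools of mice, per the labels.

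Alternatives were DESeq2 1.42.0, RLE factors, no filter, libraries thinned to the shallowest, 2 groups only and each library left out. Marker covariates were added after the data were seen. Thinning was first drawn with edgeR's thinCounts, which removes reads with replacement. After its calls were seen it was replaced by binomial thinning, and both are reported.

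Members and gene lists were chosen with earlier results of these data known. Named genes are the 3 highest per length in each cluster, the lowest, every called member and the 3 lowest p in each comparison. From other lists, called genes were named. Where a gene was picked outside this rule, the text says so. No sequences are printed.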

Additional observations from a re-analysis of the deposited data

Results flagged for a closer look

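In groups of 4 libraries, a value was singled out where the gap from the highest or lowest library to its nearest neighbour took more of the group's whole range than Dixon's 95% critical value. Of 112 such groups of values, 10 were singled out, and chance alone does so for about 1 in 20 separate groups. These groups are not separate, because the sums and the share are built from rows that were checked as well. The 1 in 20 is thus only a loose guide. WT naive library 2 stood apart in 4 of the 10, some of which hold the same counts. It was low for Pcdhb5, at 5.8 CPM against 7.56 to 7.71 CPM in the other 3 libraries, low for the sum of Pcdhb1 to Pcdhb7, at 34.2 against 48.3 to 50.6 CPM, and low for their share of beta counts, at 23.5% against 28.7% to 29.7%. It was high for Pcdhb9, at 9.44 against 8.26 to 8.31 CPM.

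WT CFA library 10 was low for Pcdhb9, at 7.7 against 8.98 to 9.12 CPM. WT CFA library 9 was low for Pcdhb10, at 5.32 against 5.85 to 5.95 CPM. WT naive library 4 was high for Pcdhb14, at 9.08 against 8.04 to 8.15 CPM. Among KO libraries, naive library 8 was low for the gamma row (Pcdhgc4 in M21), at 383 against 417 to 420 CPM, CFA library 15 was high for Pcdhb4, at 4.4 against 3.17 to 3.36 CPM, and naive library 5 had a low share of Pcdhb1 to Pcdhb7, at 20.1% against 22.4% to 22.9%.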

How the results depend on the processing

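In naive libraries, where 1 clustered protocadherin was called between KO and WT, thinning to the shallowest library gave 0 by binomial thinning and 0 with thinCounts, and each marker covariate gave 2. Leaving out 1 library gave 0 to 2: 0 without KO naive 5, and 2 (Pcdhb1 and Pcdhb9) without WT naive 2 or WT CFA 10. In CFA libraries, where 0 were called, DESeq2 gave 3, binomial thinning 1 (Pcdhb12) and leaving out 1 library 0 to 2. In the average of genotype, where 5 were called, binomial thinning gave 3 (Pcdhb1, Pcdhb7 and Pcdhb9), thinCounts 1 (Pcdhb7), each covariate 8, and leaving out 1 library 3 to 7, with 3 without WT naive 3 or KO naive 7. Pcdhb9, at 0.26 on the log2 scale, was 0.11 with thinCounts (edgeR adjusted p = 0.729, the highest over its alternatives, from 0.000203). Binomial thinning is the stated setting because thinCounts adds noise of its own, but this choice was made after the calls of thinCounts were seen. No CFA comparison and no interaction called a member under any alternative run.

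The gamma row (Pcdhgc4 in M21) changed sign without KO naive 8, to 0.0 for KO against WT in naive libraries (-0.04 to 0.0 over all single libraries left out), 0.01 in the average (-0.01 to 0.01) and -0.01 for CFA in KO (-0.01 to 0.04), all near 0. The summed levels of the 3 clusters moved by less than the spread between replicates in all alternatives run, leave-one-out included. No paired analysis was possible because the library numbers run from 1 to 16 and no 2 groups share one. Pcdhb1 is limited by depth, at 7 to 59 counts per library.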
